A study of Homo sapiens with 6 samples.

Results

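Integrins are cell surface receptors built from 1 alpha and 1 beta chain, and they bind cells to the extracellular matrix or to other cells. The alpha chain mostly sets the ligand, while the beta chain tail binds talin and kindlin, which switch the receptor to its active shape. In blood cells, the beta1 integrins hold progenitors to fibronectin and to VCAM1 in the marrow, and the beta2 integrins carry leukocyte adhesion.

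The 10 genes described here are integrin subunits other than the platelet fibrinogen receptor: ITGA1, ITGA4, ITGA5, ITGA6, ITGAV, ITGAL, ITGAM, ITGB1, ITGB2 and ITGB5. They were chosen by name from the 31999 genes listed, as subunits of receptors for fibronectin, laminin, vitronectin, collagen or leukocyte ligands. Earlier results of these data were known when they were chosen. The study asked how gene expression in HEL cells, a human erythroleukemia line, depends on TMIGD2, an immunoglobulin family receptor. Its 6 libraries are 3 of cells with a control hairpin (shCtrl) and 3 of cells with a hairpin against TMIGD2 (shTMIGD2). Both groups share the HEL background, lentiviral transduction and puromycin selection. The paper's methods list 3 hairpins against TMIGD2, and the labels do not say which was used in each library.

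The value used for each gene is the authors' mean log2 CPM (read counts scaled to a common library total) over all 6 libraries, shCtrl and shTMIGD2 together. It has no spread between libraries and no depth behind it, so no error or test accompanies the levels below, and neighbours in an order of levels cannot be said to differ beyond library spread. A gene whose level differed between the hairpins would sit between its 2 group levels, and the 2 cases cannot be told apart here. No comparison of shTMIGD2 with shCtrl is given. TMIGD2 itself was at 16.9 CPM over the 6 libraries, which does not check the knockdown. For comparisons between genes, CPM was divided by the length of the main annotated transcript in kb.

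Markers of the labelled line were present. All 10 erythroid markers stood at a mean log2 CPM of 5.52 to 9.79, and the 7 megakaryocyte markers analysed stood at 5.83 to 10.54. Of 6 granulocyte and monocyte markers, 2 reached a mean log2 CPM of 0, namely LYZ (4.40) and CSF1R (0.26), while MPO, ELANE, CD14 and FCGR3B lay between -3.57 and -2.67. The lymphoid markers CD79A (2.32) and NKG7 (0.35) reached 0. Among 6 fibroblast and epithelial markers, KRT8 (2.04) and KRT18 (3.26) reached 0. The smallest value listed for any gene was -3.76, so values near it hold few reads.

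In HEL cells, 9 of the 10 subunits reached a log2 CPM of 0, that is 1 CPM. This level was reached by 43.8% of all genes listed and 69.1% of the 16339 protein-coding genes matched by symbol. It was also reached by 17 of the 25 integrin genes listed, these 10 included. Among the 10, ITGA1, the alpha chain of a collagen and laminin receptor, was the one below, at -0.70. Per length, the median of the 10 subunits was 9.43 CPM per kb, against 3.58 for all genes with a main transcript. With merged exon lengths in place of the main transcripts, the median of the 10 was 4.13. The median of all genes was not computed with merged exon lengths, so 4.13 cannot be set against 3.58. ITGA4 and ITGB1 together held 77.8% of the CPM per kb summed over the 10 genes. From ITGA4 to ITGA1, the levels per length spanned 2180-fold, although the transcripts differed 3.82-fold at most in length.

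**Figure D1:**
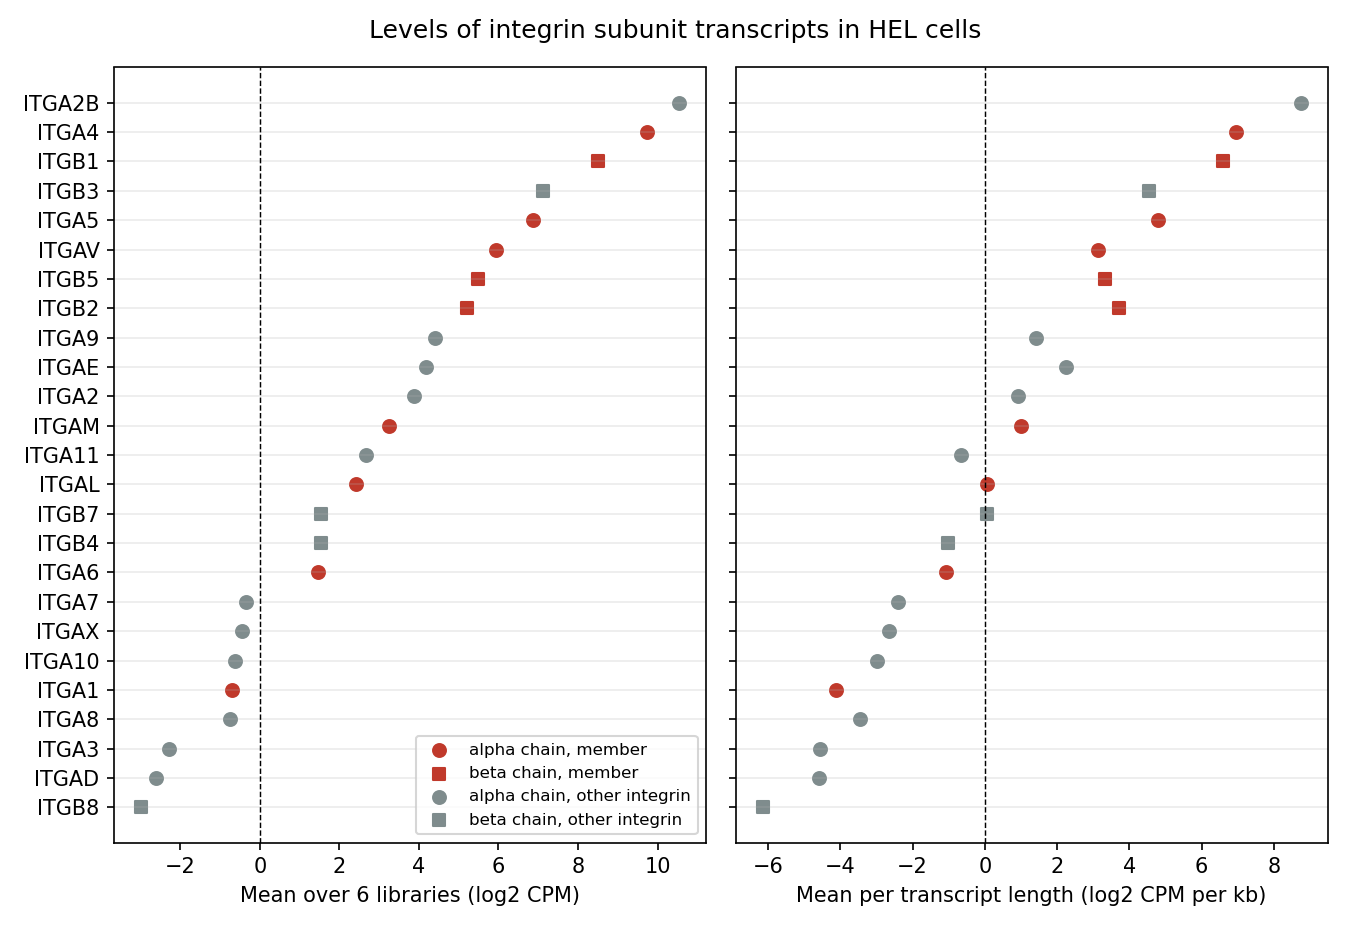
Mean level of 25 integrin subunit genes over the 6 libraries, as log2 CPM on the left and as log2 CPM per kb of main transcript on the right. Each point is 1 gene with no error available, red marks the 10 genes described here, and the dashed line is at 0. ITGA4 (9.73) and ITGB1 (8.49) are the highest red points on the left and ITGA1 (-0.70) is the lowest.

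ITGA4 encodes the alpha4 chain (CD49d), which pairs with beta1 as the receptor for VCAM1 and for an alternatively spliced part of fibronectin. It lies on the plus strand of chromosome 2 from 181457202 to 181538940 (GRCh38, GENCODE 44). Its mean level was 849 CPM, above 99.6% of all genes listed. Its main transcript has 28 exons and 6781 bases, of which 50.3% are 3' UTR. Per length ITGA4 stood at 125 CPM per kb, the highest of the 10 genes and above 96.9% of the 16174 genes with a main transcript. The exons of CERKL, on the opposite strand, share 2813 bases with those of ITGA4, and CERKL was listed at 0.24 on the log2 CPM scale.

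ITGA5 encodes the alpha5 chain (CD49e) of the main fibronectin receptor, which recognises the RGD motif. The gene is compact, on chromosome 12, minus strand, from 54395261 to 54419266, with 30 exons in a transcript of 4250 bases. At 118 CPM it lay above 94.0% of all genes listed, and at 27.7 CPM per kb above 84.0% of genes with a main transcript. ITGA4 was thus 4.52 times as high per length as this second fibronectin-binding alpha chain of beta1.

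ITGAV encodes the alphaV chain (CD51), which pairs with beta1, beta3, beta5, beta6 or beta8 in receptors for vitronectin and other RGD ligands. It sits on chromosome 2, plus strand, from 186590010 to 186680901, and its main transcript of 7039 bases is 51.3% 3' UTR. Its mean level was 61.9 CPM, or 8.79 CPM per kb. By CPM alone it ranked above ITGB5 and ITGB2, and per length it ranked below both, so its place among these 3 rests on the scale.

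ITGA6 encodes the alpha6 chain (CD49f) of laminin receptors, paired with beta1 or beta4. The gene is on chromosome 2 from 172427354 to 172506459, plus strand. It was at 2.75 CPM and 0.473 CPM per kb, below ITGA4 on the same chromosome by 264-fold per length. Its opposite-strand neighbour ITGA6-AS1 was listed at -2.01 on the log2 CPM scale and shares 125 exon bases with it.

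ITGA1 encodes the alpha1 chain (CD49a), a collagen receptor with an inserted ligand-binding domain. Found on the plus strand of chromosome 5 from 52787916 to 52959209, it has the longest main transcript of the 10 genes, with 10736 bases and 62.9% of them in the 3' UTR. Its level was 0.616 CPM and 0.0574 CPM per kb. PELO, which lies inside the ITGA1 locus on the same strand, shares 499 exon bases with it and was listed at 4.73 on the log2 CPM scale.

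ITGAL and ITGAM encode the alphaL (CD11a) and alphaM (CD11b) chains of leukocyte integrins that bind ICAM family proteins, and alphaM also binds the complement fragment iC3b. Both lie on the plus strand of chromosome 16, ITGAL from 30472658 to 30523567 and ITGAM from 31259967 to 31332892. ITGAM was at 9.51 CPM (2.02 CPM per kb) and ITGAL at 5.35 CPM (1.04 CPM per kb). ITGAM, a marker of myeloid maturation, lay above 70.9% of all genes listed, but above 46.8% of protein-coding genes by CPM and 43.5% of genes with a main transcript per length. ITGA1, ITGAL and ITGAM are the 3 alpha chains of the 10 genes with an inserted domain, and their proteins are the longest of the 10, with 1152 to 1179 residues. Their median was 1.04 CPM per kb, against 18.2 CPM per kb for the 4 alpha chains without it (0.542 and 9.56 with merged exon lengths). Of these 4, ITGA6 was below ITGAL and ITGAM. Among the other integrin alpha chains, those with an inserted domain ranged from 0.0419 (ITGAD) to 4.74 CPM per kb (ITGAE). Those without it ranged from 0.0420 (ITGA3) to 428 CPM per kb (ITGA2B). The contrast thus describes the 10 genes only and was not tested.

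ITGB1 encodes beta1 (CD29), the partner of 12 alpha chains. The gene occupies chromosome 10, minus strand, from 32887273 to 33005792, and its main transcript has 3735 bases in 16 exons. Its level was 360.4 CPM, above 98.7% of all genes listed, and 96.5 CPM per kb, above 95.7% of genes with a main transcript. The opposite-strand transcript ITGB1-DT, which shares 401 exon bases, was listed at -3.18 on the log2 CPM scale. ITGB2 encodes beta2 (CD18), the common chain of the leukocyte integrins, on chromosome 21, minus strand, from 44885953 to 44931989. At 37.0 CPM and 13.2 CPM per kb, it had the shortest main transcript of the 10 genes (2807 bases), and ITGB2-AS1 on the other strand was listed at -3.11 on the log2 CPM scale. ITGB5 encodes beta5, which pairs with alphaV only, on chromosome 3, minus strand, from 124761948 to 124901418. Its level was 44.7 CPM and 10.1 CPM per kb. Per length, ITGB2, ITGB5 and ITGAV lay close together, between 8.79 and 13.2 CPM per kb.

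**Figure D2:**
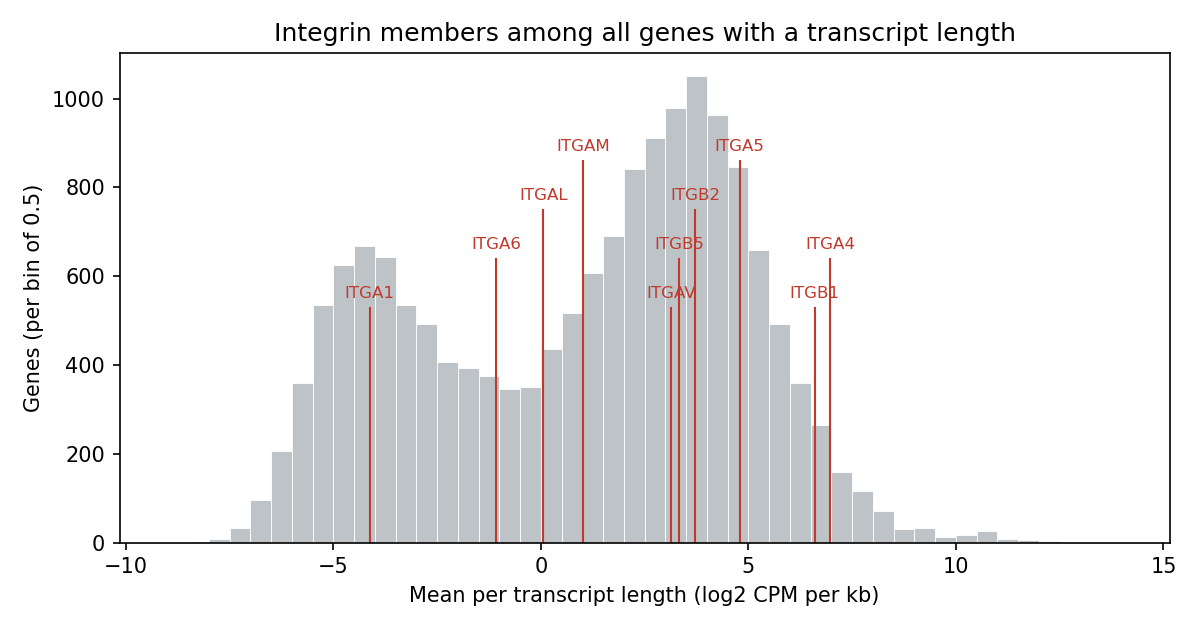
Histogram of the mean level per transcript length (log2 CPM per kb) for 16174 genes with a main transcript, in bins of 0.5, with the 10 integrin subunits as red lines whose height has no meaning. ITGA4 and ITGB1 lie in the right tail and ITGA1 lies in the lower of the 2 humps of genes.

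The sequence upstream of the main start was taken from RefSeq (GRCh38.p14) for 8 of the 10 genes. The main start can lie inside the gene span given above, as for ITGA4, ITGB1 and ITGAM. The 250 bases before the start held a median of 11 CpG dinucleotides over 34943 such windows in the genome. ITGB1 had 32, ITGA6 30, ITGA4 25, ITGB5 23, ITGAV 18, ITGA1 16 and ITGA5 12. ITGAM, the leukocyte gene among the 8, had 2, at the 14.7th percentile of the windows. The highest and the lowest expressed genes, ITGA4 and ITGA1, both lay above the median. The last 100 bases before the start are shown for these and for the extremes of CpG content, with each CpG in capitals. They lie at chr2:181457286-181457385 (plus strand, ITGA4), chr10:32958231-32958330 (minus strand, ITGB1), chr5:52787816-52787915 (plus strand, ITGA1) and chr16:31259875-31259974 (plus strand, ITGAM).
ITGA4: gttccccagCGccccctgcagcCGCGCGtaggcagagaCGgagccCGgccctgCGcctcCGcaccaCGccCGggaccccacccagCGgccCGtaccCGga
ITGB1: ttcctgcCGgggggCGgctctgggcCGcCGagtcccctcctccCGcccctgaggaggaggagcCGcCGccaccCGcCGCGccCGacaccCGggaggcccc
ITGA1: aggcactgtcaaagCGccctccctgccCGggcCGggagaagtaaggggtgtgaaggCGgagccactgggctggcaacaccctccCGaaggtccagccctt
ITGAM: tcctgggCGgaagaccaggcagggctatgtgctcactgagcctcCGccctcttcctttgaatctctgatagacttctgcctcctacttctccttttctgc
In these 100 bases ITGA4 has 13 CpG, ITGB1 12, ITGA1 5 and ITGAM 2.

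Both strands of the 250 bases were searched for 4 short motifs. The Sp1 box GGGCGG was found in 5 of the 8 (ITGA5, ITGA6, ITGAM, ITGB1 and ITGB5), where 42.5% of all windows hold it. The PU.1 core GAGGAA was found in 4 (ITGAV, ITGAM, ITGB1 and ITGB5), where 23.6% of windows hold it. Neither TATAAA, in 10.8% of windows, nor AGATAA, a form of the GATA site in 9.19% of windows, was found in any of the 8. Other forms of the GATA site were not searched.

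An integrin reaches the surface only as a pair, so the levels of both chains were set side by side. Of 24 known human pairs, 23 had both chains listed, and ITGB6 was not analysed here. In 15 of the 23, both chains reached a log2 CPM of 0, a level that 17 of the 25 integrin genes reached singly. The 10 genes form 8 pairs among themselves, and 7 of these met that level in both chains, all but ITGA1 with ITGB1.

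In 7 of the 8 pairs the alpha chain was the lower one per length. The exception was ITGA4 with ITGB1, where the alpha chain stood at 130% of the beta chain, or 322% with merged exon lengths. ITGA5 stood at 28.7% of ITGB1, ITGAV at 9.11%, ITGA6 at 0.490% and ITGA1 at 0.0595%. With merged exon lengths these shares were 64.3%, 12.9%, 1.66% and 0.134%, in the same order. ITGAM stood at 15.3% of ITGB2 and ITGAL at 7.92%, or 33.0% and 10.7% with merged exon lengths. ITGAV stood at 87.2% of ITGB5 with the main transcripts and at 46.6% with merged exon lengths, and on CPM without length the order of these 2 genes turned.

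Summed over its 12 alpha partners, the alpha chains came to 168 CPM per kb against 96.5 for ITGB1, a ratio of 1.74, or 4.22 with merged exon lengths. ITGA4 made up 74.6% of that sum. Without ITGA4 the other 11 partners came to 0.442 of ITGB1 with the main transcripts and to 1.00 with merged exon lengths. The beta2 partners ITGAL, ITGAM, ITGAX and ITGAD together reached 0.247 of ITGB2, or 0.465 with merged exon lengths, and ITGAM made up 61.9% of their sum. A ratio of transcripts says nothing on the amounts of protein, and alphaV, alpha4 and alpha6 also pair with other beta chains.

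**Figure D3:**
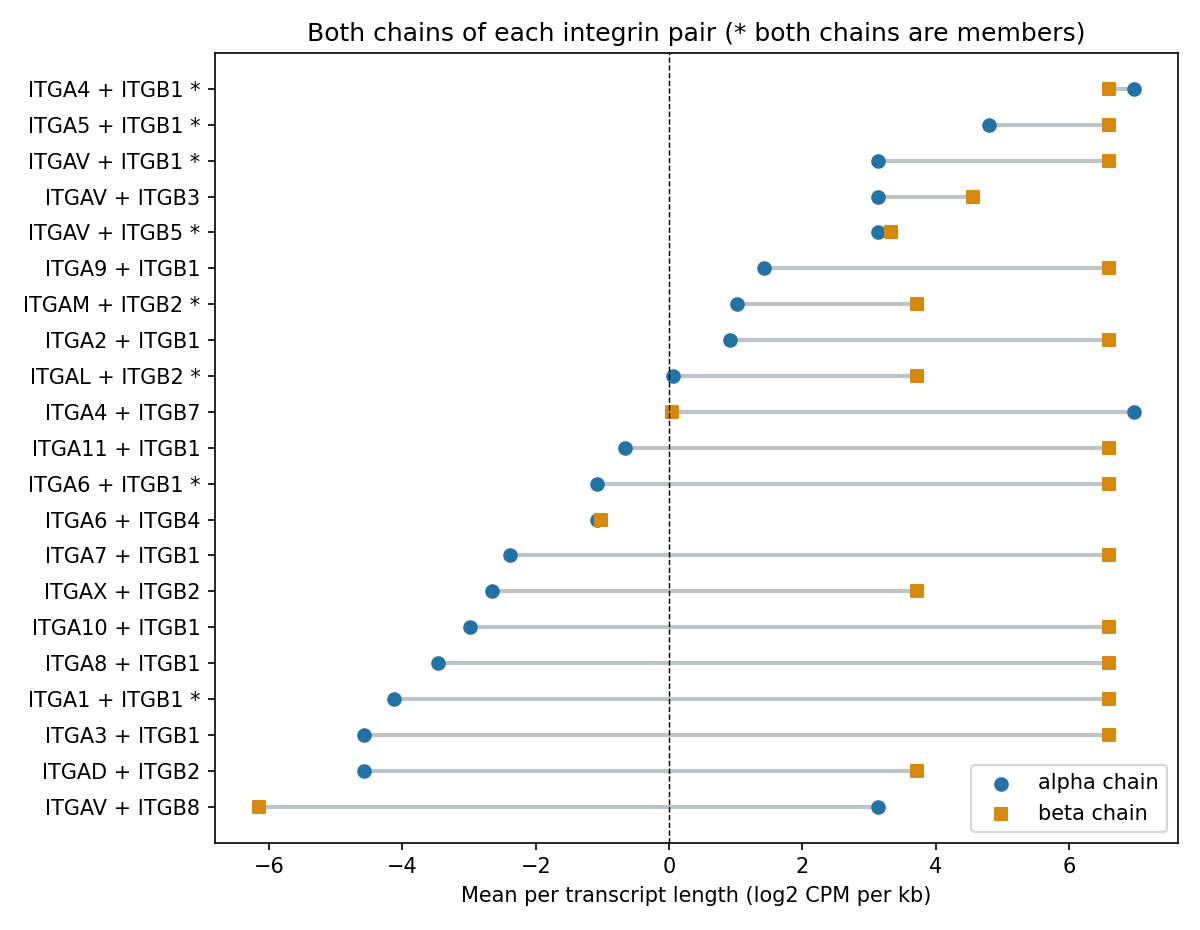
Level per transcript length (log2 CPM per kb) of the alpha chain (blue circle) and the beta chain (orange square) in 21 pairs with at least 1 of the 10 genes, ordered by the lower chain. Stars mark the 8 pairs with both chains among the 10 genes. ITGA4 with ITGB1 has the highest lower chain, and the alpha chain is the lower one in 18 of the 21 pairs. Pairs that share a chain are not separate observations.

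Among the 15 other integrin subunits listed, 8 reached a log2 CPM of 0, and their median was 0.492 CPM per kb. ITGA2B, the platelet alphaIIb chain, had the highest level of all integrin genes at 428 CPM per kb, 3.42 times that of ITGA4. Its partner ITGB3, which also pairs with alphaV, was at 23.4 CPM per kb, and alphaV stood at 37.5% of beta3, or 15.7% with merged exon lengths. Of the other beta partners of alpha4, alpha6 and alphaV, ITGB7 was at 1.04, ITGB4 at 0.492 and ITGB8 at 0.0141 CPM per kb. ITGA6 stood at 96.3% of ITGB4. The 10 genes held 38.1% of the CPM per kb summed over the 25 integrin genes, and ITGA2B alone held 57.2%. The remaining alpha chains above a mean log2 CPM of 0 were ITGA9 (4.39), ITGAE (4.17), ITGA2 (3.88) and ITGA11 (2.68). ITGA7 (-0.35), ITGAX (-0.44), ITGA10 (-0.63), ITGA8 (-0.76), ITGA3 (-2.28) and ITGAD (-2.62) lay below it.

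Matrix ligands of these receptors were mostly low in HEL cells themselves. A log2 CPM of 0 was reached by 43.8% of all genes listed and by 69.1% of protein-coding genes. FN1 (fibronectin) was at -0.82 and VTN (vitronectin) at -2.93 on the log2 CPM scale. The 4 collagen genes of the list ranged from -3.76 to -0.80, in the order COL1A1 (-0.80), COL4A2 (-2.62), COL1A2 (-3.40) and COL4A1 (-3.76). Of 11 laminin chains, 5 reached 0: LAMC1, LAMA5, LAMB1, LAMB2 and LAMB3. The highest of these per length were LAMC1 (15.8 CPM per kb), LAMA5 (6.03) and LAMB1 (4.66), which together can form a laminin trimer. Among the 10 genes, ITGA6 and ITGA1, alpha chains of laminin receptors, were at 0.473 and 0.0574 CPM per kb. Of 9 genes listed as cell surface ligands and analysed, 6 reached a mean log2 CPM of 0. They include CD226 (6.62), which is not itself a ligand of these integrins. ICAM5 was at 26.9, ICAM2 at 21.5 and THY1 at 10.6 CPM per kb, the ICAM proteins being ligands of alphaL with beta2. VCAM1, the surface ligand of alpha4 with beta1, was at -3.76 on the log2 CPM scale, the smallest level listed to 2 decimals. ICAM4 was not analysed here.

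Genes for the cytoplasmic partners of integrins were present almost throughout. For comparison, 43.8% of all genes listed and 69.1% of protein-coding genes reached a log2 CPM of 0. All 10 inside-out activators reached a log2 CPM of 0, led per length by FERMT3 (kindlin of blood cells, 264 CPM per kb), TLN1 (talin, 117) and APBB1IP (the RAP1 effector RIAM, 53.2). The 4 inhibitors did too, led by FLNA (filamin A, 179 CPM per kb), SHARPIN (44.1) and DOK1 (29.5). Of 15 kinases and adaptors of outside-in signaling analysed, 14 reached 0, led by ZYX (zyxin, 107 CPM per kb), LIMS1 (PINCH, 76.8) and LYN (a SRC family kinase, 54.9). The one below was ILK, the integrin-linked kinase, at -0.63 on the log2 CPM scale. Overlap of ILK exons with other genes, which can affect counting, was not examined. PARVA was not analysed here. The median per length was 30.0 CPM per kb for the activators, against 9.43 for the 10 integrin subunits and 3.58 for all genes with a main transcript.

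**Figure D4:**
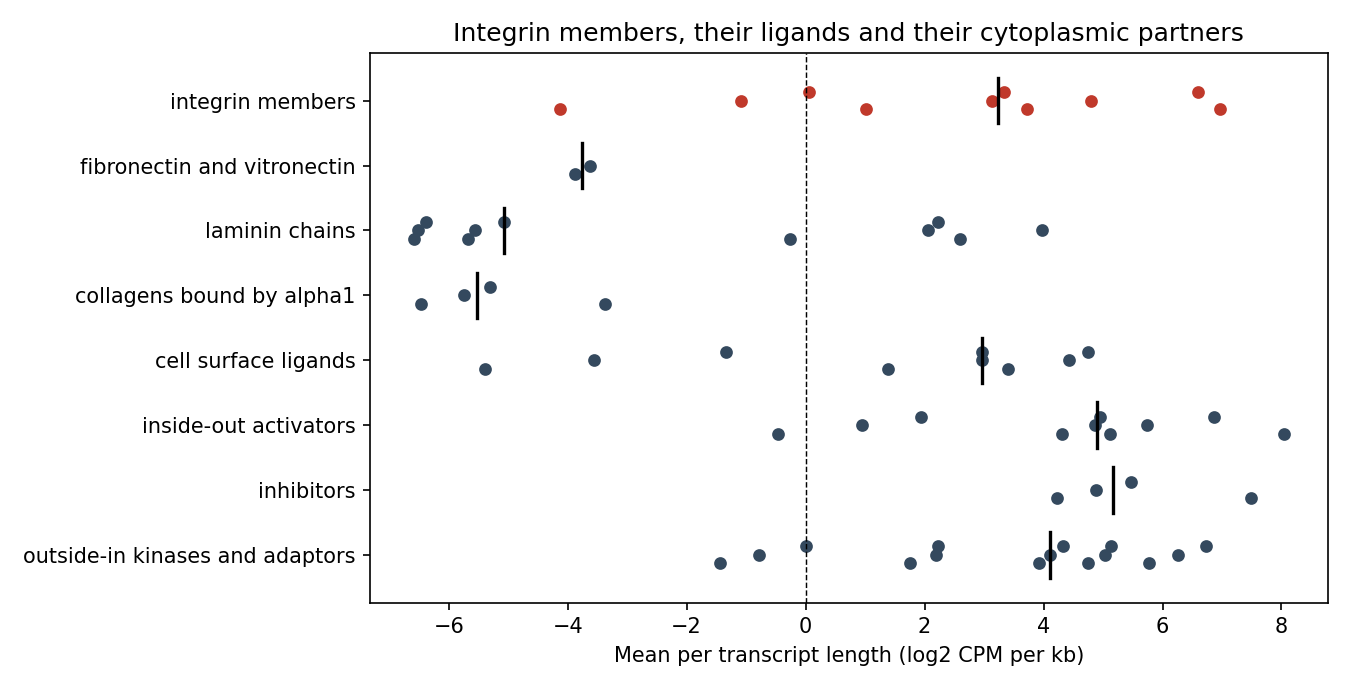
Mean level per transcript length (log2 CPM per kb) of the 10 integrin subunits (red) and of genes for their ligands and cytoplasmic partners (dark), 1 point a gene, spread vertically only for legibility. Black bars are medians and the dashed line is at 0. CD226, plotted with the cell surface ligands, is not itself a ligand of these integrins. Collagens, fibronectin and vitronectin lie left of the line, and the activators and inhibitors lie right of it except TLN2.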

How the data were processed

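Poly(A) RNA of HEL cells was sequenced from directional libraries, 3 of shCtrl and 3 of shTMIGD2. Per the submitters' processing notes and the methods, the authors aligned reads to hg38 with STAR 2.6.1b and counted fragments per gene with HTSeq 0.6.1 on a refSeq annotation; whether counting used the strand is not given in the sources used here. The authors' deposited table holds, per gene, a mean log2 CPM over the 6 libraries together, as edgeR gives it (read from the column name; the prior count is not given in the sources used here). Its 4 other columns hold the authors' own edgeR comparison (fold change, F statistic, p-value and adjusted p-value) and were not used. The paper's methods name DESeq2, not edgeR, for differential expression. The planned count test needs counts per library and was not run, and the depth per library is unknown from this table.

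Mean log2 CPM was turned into CPM and divided by the length of the MANE Select transcript in GENCODE 44 (the main transcript). Of the gene names, 22815 of 31999 matched GENCODE by symbol and 16174 had such a transcript. Percentiles are shares of genes with a lower value. A mean log2 CPM of 0 was the threshold for counts. The arithmetic was tested on simulated data. Python 3.11.15, pandas 2.3.3 and matplotlib 3.10.9 were used. The members and gene lists were chosen with earlier results of these data known. Named genes were the 10 members, TMIGD2, the other integrin subunits, and per role of a ligand and a partner list the 3 highest per length and any without a value. ILK, TLN2, COL4A1, LAMB2, LAMB3, VCAM1, CD226, PELO, CERKL and antisense neighbours were also named after their values were seen. One marker of the lists is not reported here.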

Additional observations from a re-analysis of the deposited data

How the results depend on the processing

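No paired analysis was possible because the table has no values per library. For the same reason the change between shTMIGD2 and shCtrl, DESeq2 in place of edgeR, other size factors, no filter on low counts and leaving out each library were not run. With the merged exon length of each gene in place of the main transcript, the median of the 10 subunits went from 9.43 to 4.13 CPM per kb, the alpha to beta ratio of beta1 from 1.74 to 4.22 and that of beta2 from 0.247 to 0.465; ITGB1 moved by 3.90-fold, 7 of the 10 genes moved over 1.5-fold, and ITGB5 passed ITGB2. With the longest protein-coding transcript the ratios were 2.24 and 0.279. With the smallest listed CPM subtracted, the median was 9.42 and the beta2 ratio 0.243. Without division by length the ratios were 2.98 and 0.426. The alpha chain was the lower one in 7 of the 8 pairs under the 3 alternatives that divide by length, and in 6 of 8 without length. The median percentile of the 10 subunits went from 83.7 among all genes listed to 69.2 among protein-coding genes and 62.7 among genes that reached a log2 CPM of 0. The count of 9 subunits at the threshold was 9 at a threshold of 1 and 10 at -1. Depth limits genes near the smallest value, such as ITGA1 at 0.616 CPM, where the smallest CPM listed is 0.0736.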
